A study of Mus musculus with 4 samples.

Results

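Glucose breakdown and the response to low oxygen were followed through 36 genes, chosen by name, in oligodendrocytes sorted from wild-type mice and from mice with a knock-in allele of Zfp488. The 36 comprise the enzymes of glycolysis, the transporters of glucose and lactate, the entry of pyruvate into mitochondria, and the sensors and targets of the hypoxia-inducible factors (HIF). All 36 symbols are among the 35869 rows of the expression table. Of these, 32 had at least 1 FPKM (fragments per kilobase, scaled to the mapped fragments of the library) in at least 2 of the 4 libraries and were tested. Hk2, Pfkfb3, Slc16a3 and Egln3 did not reach that level and are given as values.

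Oligodendrocytes, which wrap axons in myelin, were sorted from mouse cortex at postnatal day 5 as cells positive for the surface lipids O4 and GalC. There were 2 wild-type (WT) libraries, which the series calls control, and 2 libraries of mice with a knock-in allele of Zfp488 on both chromosomes (Zfp488KI/KI), which the genotype label calls KO. The sources used here give no strain, sex, treatment or construction of the allele. Nor do they say whether each library is a separate animal or a pool, so each p-value reflects library-to-library spread that could be technical only. Zfp488, which encodes a zinc finger protein of the oligodendrocyte lineage, was at 6.61 and 5.29 FPKM in the WT pair of libraries, against 4.82 and 4.11 FPKM in the KO pair. Both KO libraries were below both WT libraries, by a log2 fold change of -0.34 (SE 0.33; limma adjusted p = 0.95), and whether the allele removes the reads counted here is unknown.

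Glycolysis turns glucose into pyruvate in the cytosol. Pyruvate then enters the mitochondrion through pyruvate dehydrogenase or is reduced to lactate, which oligodendrocytes can export to axons. HIF transcription factors are made continuously, are marked for destruction by prolyl hydroxylases while oxygen is present, and switch on glycolytic and vascular genes when it is scarce. Sustained HIF activity is known to hold back the maturation of oligodendrocyte precursors.

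The cells carried the RNA of their lineage in all 4 libraries. Olig1 and Olig2, factors that define the lineage, lay between 1249 and 1487 FPKM and between 390.2 and 454.1 FPKM. No marker of precursors or oligodendrocytes passed the test between genotypes. Of 8 tested precursor markers, both KO libraries were above both WT libraries for 5 and below for 0, and of 14 oligodendrocyte markers they were above for 2 and below for 6, where 16.6% of all tested rows lay above and 18.3% below. The median log2 fold change was 0.43 for the precursor markers and -0.80 for the oligodendrocyte markers. Libraries numbered 2 held more RNA of other cell types in both genotypes. The summed level of 15 endothelial and pericyte markers was 3.26 and 8.99 FPKM in WT 1 and KO 1, and 89.7 and 77.1 FPKM in WT 2 and KO 2. That of 12 microglia markers was 62.1 and 61.4 FPKM in WT 1 and KO 1, and 156.4 and 174.4 FPKM in WT 2 and KO 2. The sum of 12 proliferation markers followed the same split, at 137.5, 536.6, 198.2 and 556.3 FPKM in WT 1, WT 2, KO 1 and KO 2. Of the 15 endothelial and pericyte markers, 9 and 8 were listed at 0 in WT 1 and KO 1, and 3 and 2 in WT 2 and KO 2. What part these cells have in the differences described here was not tested.

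No member passed the test between genotypes. In bulk RNA, fewer cells of a type and less RNA per cell cannot be told apart. By limma with Benjamini-Hochberg adjustment over all 10754 tested rows, 0 rows had an adjusted p under 0.05 (0%), and 0 of the 32 members did. At an unadjusted p under 0.05 there were 302 higher rows (2.81%) and 306 lower rows (2.85%), among them 3 higher members (Adm, Pdha1 and Slc2a3) and 1 lower member (Ankrd37). Both KO libraries lay above both WT libraries for 8 of 32 members, against 16.6% of all tested rows, and below them for 7, against 18.3%. The groups overlapped for the remaining 17. The median log2 fold change of the members, on the log2(FPKM + 1) scale, was 0.17, and that of all tested rows was 8.1e-05. A member that reached the minimum only in the group where it was high had to differ, as for Adm, so these counts describe the members and support no statement about them as a set.

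High and low members had different counts. Of the 13 with a mean of at least 30 FPKM, 5 lay lower in both KO libraries and 1 lay higher, where 32.4% of all tested rows of that level lay lower and 9.32% higher. Of the 19 tested members under 30 FPKM, 7 lay higher and 2 lower, where 18.4% of such rows lay higher and 14.7% lower. The level of 30 FPKM was chosen after the values were seen. The small negative values of the abundant enzymes thus accompanied a median of -0.12 over all rows of that level.

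**Figure D1:**
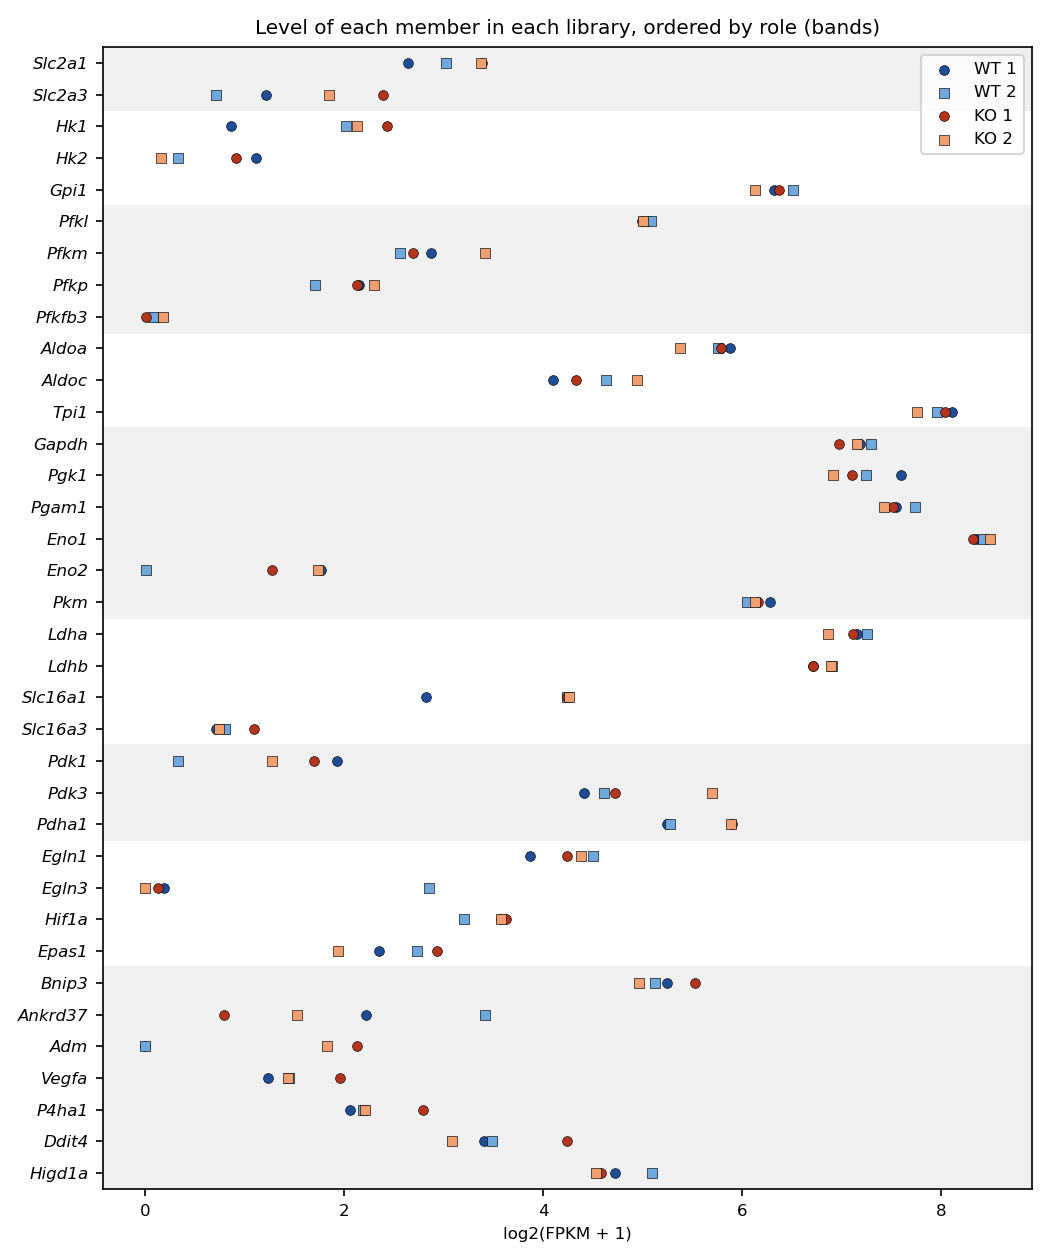
Level of each of the 36 members as log2(FPKM + 1) (horizontal axis), with 1 point per library (circles, number 1; squares, number 2; blue, WT; red and orange, KO), ordered by role in shaded bands. The enzymes of lower glycolysis other than Eno2 sit together at the right, and Adm and Egln3 have libraries at 0.

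HIF binds DNA at ACGTG or GCGTG, and the promoters of the members were searched for these letters on both strands in the 250 bases before the start of transcription (RefSeq, GRCm38.p6). A CACGTG is found once on each strand. RefSeq windows were found for 34 members, other than Slc2a3 and Epas1. At least 1 match lay in 31 of these 34 genes (91.2%), against 41.5% of 27018 genes. A gene was counted if any of its windows held a match, so a gene with more windows had more chances. By window, 81.2% of the members' 48 windows held a match, against 38.6% of 32841 windows. The members' windows were richer in G and C (61.6% on average against 53.2%). Among windows with at least 60% G and C, 27 of 28 of the members' windows and 63.8% of all windows held a match. Members were listed in part because they are known HIF targets, and a match is a stretch of letters, not a bound site. The match was present in members that lay higher in KO and in members that lay lower.

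The 6 promoters below belong to members whose groups did not overlap, 4 higher in KO (Adm, Slc2a1, Pdha1, Pdk3) and 2 lower (Pgk1, Higd1a), and whose window ends at the outer start of the gene. Pfkl and Pgam1, which also lay lower and have such a window, had smaller differences and are not printed. Each is printed 5′ to 3′ on the strand of the gene, with every match in capitals. They are chr7:110627407-110627656 (plus strand) for Adm, chr4:119108495-119108744 (plus) for Slc2a1, chrX:160138431-160138680 (minus) for Pdha1, chrX:93832151-93832400 (minus) for Pdk3, chrX:106186850-106187099 (plus) for Pgk1 and chr9:121857797-121858046 (minus) for Higd1a.
Adm: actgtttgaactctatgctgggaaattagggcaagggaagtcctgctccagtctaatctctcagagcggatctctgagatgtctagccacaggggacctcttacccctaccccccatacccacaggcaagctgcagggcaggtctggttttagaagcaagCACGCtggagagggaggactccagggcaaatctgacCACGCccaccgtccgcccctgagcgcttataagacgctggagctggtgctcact
Slc2a1: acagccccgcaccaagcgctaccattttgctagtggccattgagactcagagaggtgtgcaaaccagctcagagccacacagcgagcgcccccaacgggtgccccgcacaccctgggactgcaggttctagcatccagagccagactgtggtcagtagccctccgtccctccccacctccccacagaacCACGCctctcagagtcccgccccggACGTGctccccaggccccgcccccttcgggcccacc
Pdha1: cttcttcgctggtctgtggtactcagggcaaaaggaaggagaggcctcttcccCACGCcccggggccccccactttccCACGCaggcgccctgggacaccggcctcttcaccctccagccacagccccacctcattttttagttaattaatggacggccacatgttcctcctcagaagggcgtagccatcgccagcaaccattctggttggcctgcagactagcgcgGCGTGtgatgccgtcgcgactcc
Pdk3: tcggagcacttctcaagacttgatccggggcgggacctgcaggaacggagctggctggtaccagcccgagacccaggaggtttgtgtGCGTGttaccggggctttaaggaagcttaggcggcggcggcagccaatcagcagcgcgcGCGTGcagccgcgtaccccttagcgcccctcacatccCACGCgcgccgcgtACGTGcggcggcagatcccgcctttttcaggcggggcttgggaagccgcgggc
Pgk1: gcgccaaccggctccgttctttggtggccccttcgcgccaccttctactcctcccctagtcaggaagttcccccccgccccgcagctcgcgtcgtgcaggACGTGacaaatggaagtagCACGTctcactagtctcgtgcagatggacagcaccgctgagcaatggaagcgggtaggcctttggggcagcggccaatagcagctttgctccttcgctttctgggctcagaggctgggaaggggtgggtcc
Higd1a: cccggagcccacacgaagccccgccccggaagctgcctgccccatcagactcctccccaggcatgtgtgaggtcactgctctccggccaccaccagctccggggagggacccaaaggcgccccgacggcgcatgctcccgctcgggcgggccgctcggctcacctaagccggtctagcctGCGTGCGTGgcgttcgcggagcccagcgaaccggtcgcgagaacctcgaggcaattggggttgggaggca
Adm held 2 matches, 90 and 54 bases before the start, both as CACGC, which reads GCGTG on the other strand. Slc2a1 held 2, at 61 and 36 bases, Pdha1 3 and Pdk3 4. Pgk1 held ACGTG at 150 bases and CACGT, the same letters on the other strand, at 131 bases, and Higd1a 2 overlapping copies of GCGTG. Ankrd37, which lay lower in KO by the largest amount, held 4 matches in its window. Of the lower members whose windows are not printed, Pfkl held 1 match and Pgam1 3.

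Glucose enters oligodendrocytes through facilitative transporters, and both transporters measured here were higher in KO by their values. Slc2a1, which encodes GLUT1, was at 5.25 and 7.11 FPKM in WT, whereas the KO libraries had 9.41 and 9.37 FPKM. The KO libraries were nearly equal and both exceeded the higher WT library (log2 fold change 0.55, SE 0.31; limma adjusted p = 0.91), and without WT 1 the value was 0.36. Slc2a3, which encodes GLUT3, the high-affinity transporter typical of neurons, was measured at 1.32 and 0.641 FPKM (WT 1, WT 2) and at 4.25 and 2.61 FPKM (KO 1, KO 2). Its groups did not overlap either (1.16, SE 0.42; limma unadjusted p = 0.039, adjusted p = 0.87). Slc2a1 made up between 68.9% and 91.7% of the summed FPKM of the pair in the 4 libraries. Neuronal markers were low: the 12 listed summed to 26.5 and 41.0 FPKM in WT, against 32.7 and 55.9 FPKM in KO, led by Tubb3, a neuronal tubulin (10.4 and 24.2 FPKM in WT, 9.55 and 24.6 in KO). Of all tested rows, 16.6% lay higher in both KO libraries and 18.3% lower. Of 5 tested neuronal markers, 3 had overlapping groups (Tubb3 among them), 0 lay lower and 2 lay higher. They were Snap25, a protein of synaptic vesicle fusion (3.46 and 5.06 FPKM for WT, 6.84 and 6.82 for KO), and Stmn2, a regulator of neuronal microtubules (1.35 and 0.503 in WT, 3.67 and 6.57 in KO), both named after their values were seen. Their part in the Slc2a3 values was not tested.

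Hexokinases trap glucose in the cell by phosphorylation. Hk1, the isozyme typical of brain, was at 0.819 and 3.06 FPKM in the WT pair of libraries, against 4.40 and 3.37 FPKM in the KO pair. WT 1 stood apart from the other three libraries, and without it the log2 fold change was 0.26 in place of 0.84 (SE 0.51, limma adjusted p = 0.92). Hk1os, an antisense gene sharing 157 bp of exon with Hk1, was at 0 and 0.041 FPKM in WT, whereas the KO libraries had 0.854 and 1.65 FPKM, and without the strand setting reads of the shared stretch cannot be told apart. Hk2, the isozyme induced by growth signals and hypoxia, was at 1.17, 0.255, 0.887 and 0.114 FPKM in WT 1, WT 2, KO 1 and KO 2. The values split by library number, not by genotype. Gpi1, which isomerises glucose 6-phosphate, was measured at 79.0 and 90.3 FPKM (WT 1, WT 2) and at 81.7 and 68.7 FPKM (KO 1, KO 2), with overlapping groups.

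Phosphofructokinase makes the committed step of glycolysis. Pfkl, the liver-type subunit, was the most abundant of the 3 subunits in every library, with 69.6% to 82.1% of their summed FPKM. It was at 32.2 and 32.8 FPKM in the WT pair of libraries, against 30.8 and 31.0 FPKM in the KO pair. Each group was narrow and the groups did not overlap, yet the difference was only -0.07 (SE 0.21), and it turned to 0.025 with both KO libraries above when the libraries were rescaled to equal sums (TPM, the share of a gene among all transcripts). Pfkm, the muscle-type subunit, was at 6.32 and 4.90 FPKM in WT, whereas the KO libraries had 5.44 and 9.66 FPKM, and Pfkp, the platelet-type subunit, lay between 2.27 and 3.91 FPKM. Pfkfb3, which makes the activator fructose 2,6-bisphosphate and is a hypoxia target in many cells, was at most 0.133 FPKM in any library.

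At the aldolase step the library numbered 2 had less Aldoa and more Aldoc in each genotype. Aldoa, the ubiquitous isozyme, was measured at 57.7 and 52.8 FPKM (WT 1, WT 2) and at 54.3 and 40.4 FPKM (KO 1, KO 2). Aldoc, the brain isozyme, which is high in astrocytes, was at 16.1 and 23.8 FPKM in the WT pair of libraries, against 19.0 and 29.8 FPKM in the KO pair. Its share of the 2 aldolases was 21.9% and 31.1% in WT 1 and WT 2, and 26% and 42.5% in KO 1 and KO 2, so each library numbered 2 had the larger share. Slc1a3, a glutamate transporter of astrocytes, took the same order, at 71.9, 102.1, 92.4 and 187.0 FPKM in WT 1, WT 2, KO 1 and KO 2, as did the sum of 12 astrocyte markers (1018, 1927, 1217 and 2089 FPKM). Fabp7, which precursors of the oligodendrocyte lineage also express, made up most of that sum. The part of astrocytes in the aldolase values was not tested. Tpi1, which interconverts the triose phosphates, was at 275.3 and 247.1 FPKM in WT, whereas the KO libraries had 260.9 and 214.7 FPKM, with overlapping groups.

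The enzymes of lower glycolysis were among the abundant transcripts of these cells. Eno1, the ubiquitous enolase, ranked 137 of 10754 tested rows by mean level, at 325.4 and 342.2 FPKM in WT, against 319.2 and 357.6 FPKM in KO. Its log2 fold change was 0.018 (SE 0.12), and the groups overlapped. Eno1b, a close copy of Eno1, was at 32.1% to 34.6% of the Eno1 level in each library, so reads of the 2 copies may have been split. Eno2, the neuronal enolase, was measured at 2.42 and 0.004 FPKM (WT 1, WT 2) and at 1.43 and 2.33 FPKM (KO 1, KO 2), with WT 2 alone near 0.

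Pgk1, the first ATP-making enzyme of the pathway, had the largest difference among the glycolytic enzymes of at least 30 FPKM. It was at 191.7 and 150.4 FPKM in the WT pair of libraries, against 136.8 and 119.2 FPKM in the KO pair (171.0 ± 29.2 and 128.0 ± 12.5, SD, n = 2). Both KO libraries were below the lower WT library, with a log2 fold change of -0.41 (SE 0.18; limma unadjusted p = 0.078, adjusted p = 0.90). Without WT 1 the value was -0.23. After removal of the trends with transcript length and level it was -0.27 and the groups overlapped. Gapdh, the dehydrogenase upstream of Pgk1, was at 144.6 and 155.8 FPKM in WT, whereas the KO libraries had 124.7 and 141.5 FPKM. Pgam1, the mutase downstream of it, was measured at 186.1 and 212.5 FPKM (WT 1, WT 2) and at 182.2 and 170.5 FPKM (KO 1, KO 2). For both genes the KO libraries were the 2 lowest, by log2 fold changes of -0.17 (SE 0.15 for Gapdh and 0.14 for Pgam1), and the groups overlapped after rescaling to TPM or quantile normalization, and those of Pgam1 also after removal of the trends. Gapdh was at -0.085 without KO 1 and at -0.27 without KO 2, and Pgam1 at -0.078 without WT 2 and at -0.27 without WT 1. Pkm, the pyruvate kinase that ends the pathway, lay between 65.1 and 76.4 FPKM and did not separate the genotypes (-0.02, SE 0.18).

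Several of these genes have close copies in the genome that could take or lend reads. In the GENCODE M21 transcripts, 145 other gene models matched the coding sequence of Gapdh (at least 90% identity over at least 80% of its length). For Eno1 and Ldha there were 6 such models each, for Pkm and Bnip3 5 each, for Aldoa and Pgam1 3 each, for Pgk1 2, and for Tpi1, Ldhb and Pdha1 1 each. The 9 Gapdh-like rows in the table summed to 9.65 and 11.6 FPKM in WT, against 26.1 and 14.0 FPKM in KO. The sources used here do not say how reads with several positions were treated, so the levels of these genes are uncertain to that extent.

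The 17 glycolytic enzymes and lactate dehydrogenases were also summed. Their summed level was 1644 and 1653 FPKM in WT, against 1537 and 1495 FPKM in KO. As a percentage of the sum over all rows this came to 0.489% and 0.485% in WT and to 0.493% and 0.466% in KO, which overlap. The sum over all rows was itself lower in KO (311846 and 320581 FPKM) than in WT (336530 and 341145 FPKM).

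**Figure D2:**
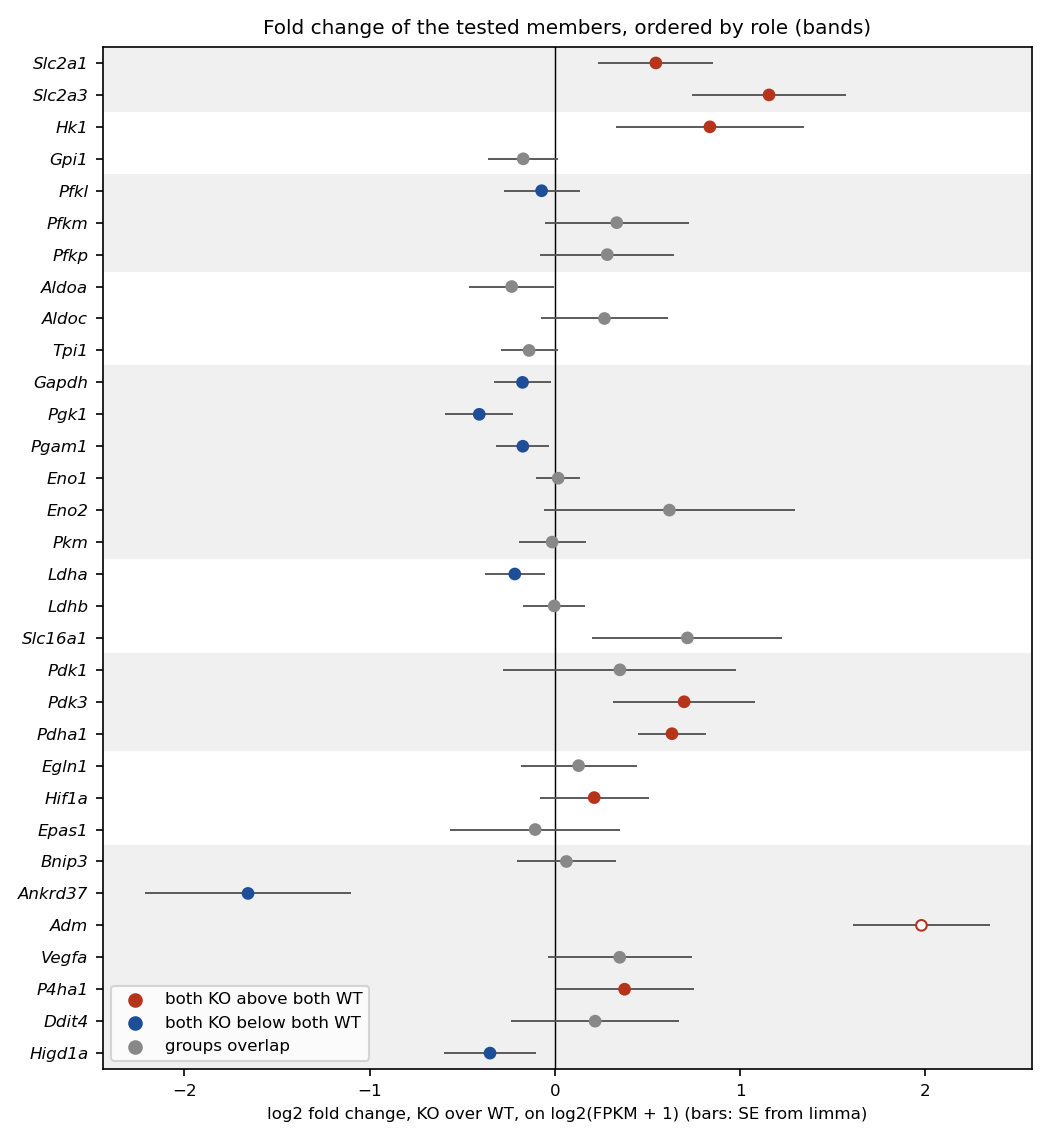
Log2 fold change of KO over WT on log2(FPKM + 1) for the 32 tested members (points) with its SE from limma (bars), ordered by role in shaded bands. Red points have both KO libraries above both WT libraries (8 members), blue points below (7), and grey points overlap (17). The open point is Adm, which was listed at 0 in WT, so that its value depends on the pseudocount.

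Lactate dehydrogenase is built from 2 subunits, of which the Ldha form favours making lactate and the Ldhb form using it. Ldha was at 141.5 and 151.2 FPKM in the WT pair of libraries, against 137.2 and 115.3 FPKM in the KO pair. Both KO libraries were below WT (-0.22, SE 0.16; limma adjusted p = 0.94), though the groups overlapped after rescaling to TPM, quantile normalization or removal of the trends, and without KO 2 the value was -0.09. Ldhb, at 103.9 and 118.8 FPKM in WT, against 104.0 and 118.0 FPKM in KO, differed by -0.0036 (SE 0.17), a sign that turned under rescaling to TPM, quantile normalization and removal of the trends. The ratio of Ldha to Ldhb was 1.36 and 1.27 in WT and 1.32 and 0.977 in KO, so that KO 2 alone stood apart.

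Slc16a1, which encodes the monocarboxylate transporter MCT1 through which oligodendrocytes release lactate, was at 6.09 and 17.9 FPKM in WT, whereas the KO libraries had 17.9 and 18.1 FPKM. A single library, WT 1, was low and the other three were alike. Without WT 1 the log2 fold change was 0.0093 in place of 0.72 (SE 0.51). Slc16a3, the transporter MCT4 of strongly glycolytic cells and a hypoxia target, lay between 0.637 and 1.13 FPKM, and Slc16a1 made up 90.5% to 96.4% of the pair.

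**Figure D3:**
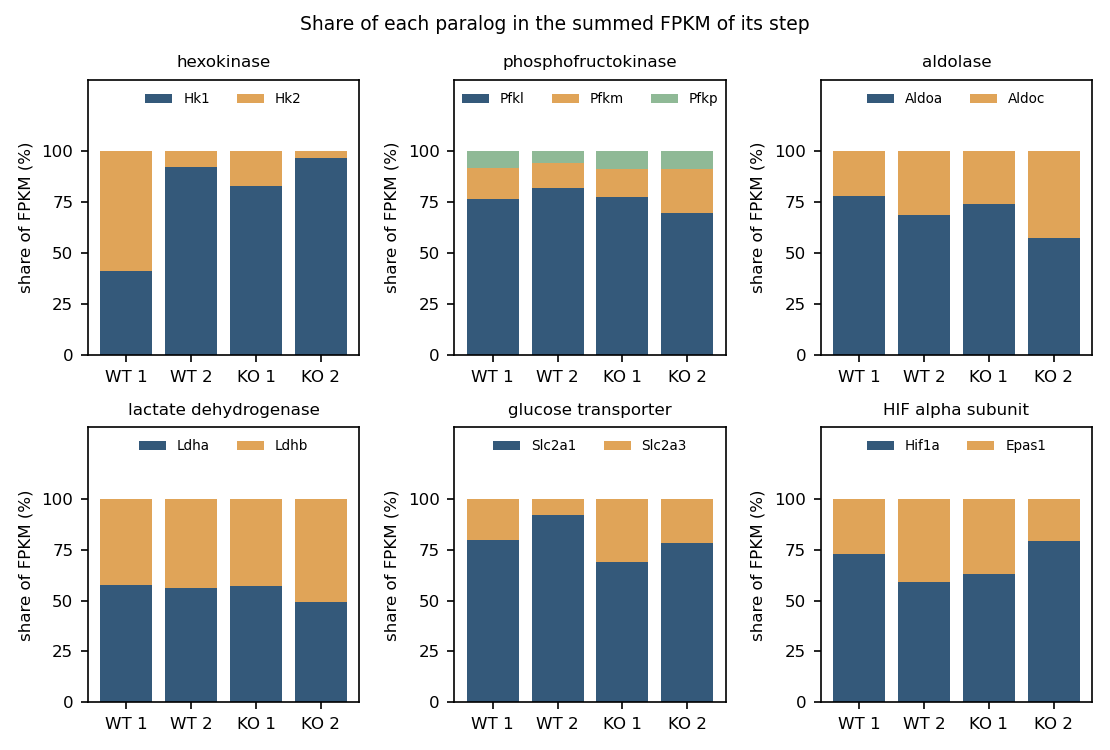
Share of each paralog in the summed FPKM of its step (bars, percent, 1 bar per library). Hk1 held 41.2% of the hexokinase level in WT 1 and 83.2% to 96.7% in the others, and the Aldoc share was larger in each library numbered 2 than in the library numbered 1 of the same genotype.

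Pyruvate dehydrogenase commits pyruvate to oxidation, and its kinases switch it off. Pdha1, the catalytic E1 alpha subunit on the X chromosome (X, 160122219 to 160138430 in GRCm38), was measured at 37.0 and 37.6 FPKM (WT 1, WT 2) and at 58.7 and 58.0 FPKM (KO 1, KO 2). The libraries of each group were almost equal (37.3 ± 0.407 and 58.3 ± 0.501, SD, n = 2), and the KO mean was 1.56 times the WT mean. The log2 fold change was 0.63 (SE 0.19; limma unadjusted p = 0.019, adjusted p = 0.86), between 0.62 and 0.64 when any 1 library was left out. Map3k15, a kinase gene on the opposite strand, shares 603 bp of exon with Pdha1, which is 16.1% of the Pdha1 exon sequence. It was at 7.03 and 6.68 FPKM in the WT pair of libraries, against 10.9 and 11.1 FPKM in the KO pair (0.61, SE 0.28), so both rows lay higher in KO, and with the strand setting not given their reads cannot be told apart in the shared stretch.

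Pdk3, a kinase of the complex, was at 20.2 and 23.4 FPKM in WT, whereas the KO libraries had 25.3 and 51.0 FPKM. The groups did not overlap, but KO 2 alone carried most of the difference, with 0.70 (SE 0.38) in all libraries and 0.21 without KO 2. Pdk1, another kinase of the complex and a HIF target, was measured at 2.81 and 0.261 FPKM (WT 1, WT 2) and at 2.23 and 1.42 FPKM (KO 1, KO 2). The libraries numbered 2 were the lower of each pair, and the genotypes overlapped. Pdk3 made up 87.8% to 98.9% of the summed FPKM of these 2 kinases.

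Other genes around pyruvate entry were listed apart from the members. Of 10 tested, both KO libraries were below WT for 4 and above for 0, where 18.3% of all tested rows, and 32.4% of those of at least 30 FPKM, lay below. By limma 0 of the 10 had an adjusted p under 0.05. Mpc2 and Mpc1, which form the carrier that brings pyruvate into the mitochondrion, were at 198.7 and 183.8 FPKM against 142.8 and 132.5 FPKM, and at 64.9 and 62.9 FPKM against 37.8 and 52.5 FPKM (WT against KO). Their log2 fold changes were -0.47 (SE 0.14) and -0.51 (SE 0.23), with limma adjusted p = 0.86 and 0.90. The E1 alpha subunit thus lay higher in KO and the carrier lower in the same libraries, neither past the threshold.

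Oxygen sensing rests on the HIF alpha subunits and the prolyl hydroxylases. Hif1a was at 10.9 and 8.21 FPKM in the WT pair of libraries, against 11.3 and 10.9 FPKM in the KO pair. The lower KO library exceeded the higher WT library by little (10.942 against 10.910 FPKM), and the difference was 0.21 (SE 0.29; limma adjusted p = 0.98), with overlap after quantile normalization, median centring and removal of the trends. The value was 0.027 without WT 2 and 0.40 without WT 1. HIF alpha subunits are governed mainly by the stability of the protein, which RNA does not show. Epas1, which encodes the second alpha subunit (HIF-2 alpha), was at 4.11 and 5.65 FPKM in WT, whereas the KO libraries had 6.63 and 2.84 FPKM, with the 2 extremes both in KO. Hif1a made up 59.2% to 79.4% of the pair.

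Egln1, the main oxygen sensor among the prolyl hydroxylases (PHD2), was measured at 13.6 and 21.6 FPKM (WT 1, WT 2) and at 17.9 and 19.9 FPKM (KO 1, KO 2), with overlapping groups. Egln3, which encodes PHD3 and is itself a HIF target, reached 1 FPKM in a single library. It was at 0.140 and 6.24 FPKM in the WT pair of libraries, against 0.094 and 0 FPKM in the KO pair. Markers of endothelial cells and pericytes were high in WT 2 and also in KO 2, where Egln3 was listed at 0; their part in the WT 2 value was not tested.

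Of 7 tested hypoxia targets, both KO libraries lay above both WT libraries for 2 and below for 2. Of all tested rows, 16.6% lay above and 18.3% below. The count above includes Adm, and the counts support no statement about these targets as a set. Adm, which encodes the vasodilator peptide adrenomedullin, was listed at 0 in both WT libraries and was at 3.38 and 2.55 FPKM in KO. It reached the minimum for testing through the KO libraries alone, so its p carries no weight, and no fold is given, since a listed 0 can be a failed estimate. Of the tested rows, 25 were listed at 0 in both WT libraries and 20 in both KO libraries.

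Ankrd37, an ankyrin repeat gene strongly induced by HIF in many cells, lay lower in KO by its values. It was at 3.64 and 9.65 FPKM in WT, whereas the KO libraries had 0.729 and 1.88 FPKM. The higher KO library was below the lower WT library, and in each genotype the library numbered 2 was the higher (-1.66, SE 0.56; limma unadjusted p = 0.031, adjusted p = 0.86). The value was -2.26 without WT 1 and -1.06 without WT 2. Ankrd37 shares 349 bp of exon with the antisense gene Lrp2bp, which was at most 0.008 FPKM, and 57 bp with Ufsp2, also antisense. Ufsp2 was measured at 14.8 and 19.1 FPKM (WT 1, WT 2) and at 13.2 and 13.9 FPKM (KO 1, KO 2), so it too lay lower in both KO libraries. With the strand setting not given, reads of the shared stretches cannot be told apart.

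For the remaining targets single libraries stood out. Bnip3, a mitophagy receptor, was at 37.0 and 33.9 FPKM in the WT pair of libraries, against 45.1 and 30.3 FPKM in the KO pair. Vegfa, the angiogenic factor, was at 1.36 and 1.73 FPKM in WT, whereas the KO libraries had 2.87 and 1.70 FPKM. Ddit4, an inhibitor of mTORC1 also known as REDD1, was measured at 9.61 and 10.2 FPKM (WT 1, WT 2) and at 17.9 and 7.47 FPKM (KO 1, KO 2). In all 3 genes KO 1 was the highest library, and for Bnip3 and Ddit4 KO 2 was the lowest. P4ha1, a collagen prolyl hydroxylase, was at 3.16 and 3.55 FPKM in the WT pair of libraries, against 5.90 and 3.62 FPKM in the KO pair, where KO 1 was again the highest library, and without it the log2 fold change was 0.086 in place of 0.38. Higd1a, a hypoxia-induced protein of the inner mitochondrial membrane, was at 25.3 and 33.1 FPKM in WT, whereas the KO libraries had 23.0 and 22.1 FPKM (-0.35, SE 0.25; limma adjusted p = 0.93). WT 2 was its highest library, and without it the value was -0.16.

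The direction of a difference depended on the scaling for some members. Slc2a1, Slc2a3, Pdk3 and Pdha1 had both KO libraries above both WT libraries under every scaling used, and Ankrd37 and Higd1a below. The scalings were FPKM as deposited, rescaling to TPM, quantile normalization, median centring and removal of the length and level trends. Adm also stayed above, but it was listed at 0 in both WT libraries and tested through the KO libraries alone. Its separation was thus set in advance and carries no weight. Rescaling to TPM, which moved the median of all rows to 0.095, left 13 members higher and 3 lower in KO, in place of 8 and 7, while the shares of all tested rows became 21.7% higher and 13.1% lower. Hk1, Hif1a and P4ha1 among the higher members, and Pgk1, Gapdh, Pgam1, Ldha and Pfkl among the lower, overlapped under at least 1 of these scalings. The plot of fold change against level sets the members beside the median of all rows.

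**Figure D4:**
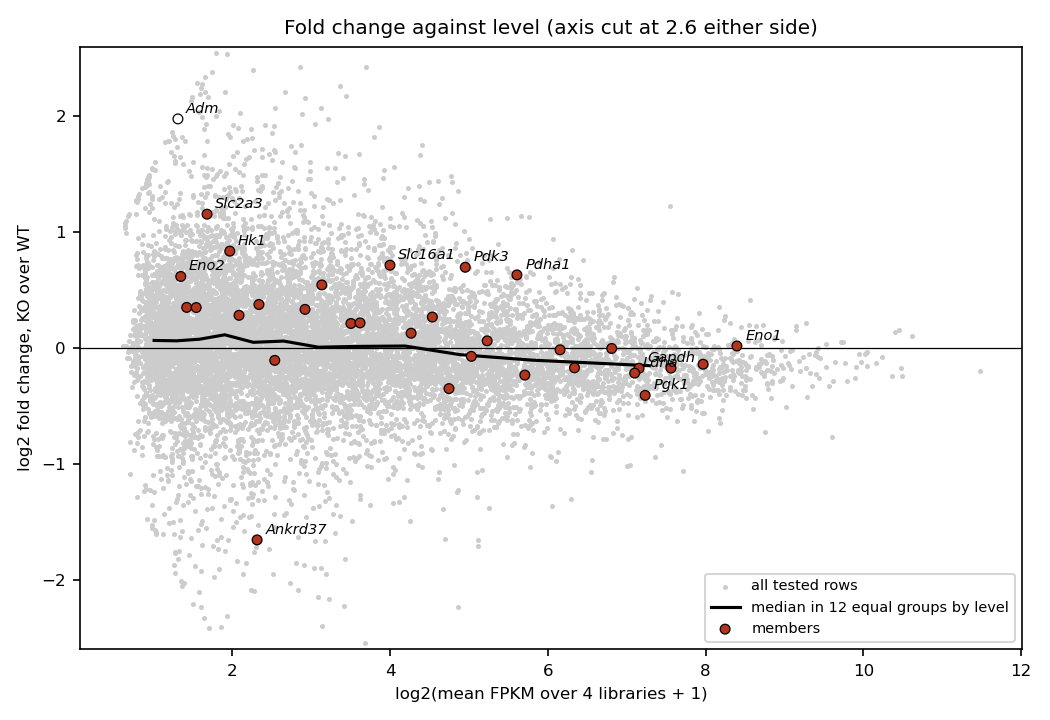
Log2 fold change of KO over WT against the mean level of each tested row, both on log2(FPKM + 1). Grey points are the tested rows that fall within the limits of the vertical axis, the line is the median in 12 equal groups by level, and red points are the 32 members, with Adm open because it was listed at 0 in WT. Pgk1, Ldha and Gapdh lie where the line is below 0, while Pdha1 and Pdk3 lie above it.

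Within each library number the genotypes could be set side by side once more. Of the 32 tested members, 10 were higher in KO for both numbers, 9 were lower for both, and 13 went opposite ways. The share of all tested rows with the same direction for both numbers was not computed. The counts thus describe the members and support no statement about them as a set. Slc2a3 (1.18 for number 1 and 1.14 for number 2) and Pdha1 (0.65 and 0.61) differed almost equally in the 2 pairs, on the log2(FPKM + 1) scale. Eno2 (-0.49 and 1.73), Pdk1 (-0.24 and 0.94), Epas1 (0.58 and -0.79) and Ddit4 (0.83 and -0.40) turned sign between them. The pairs rest on a number in the sample titles alone.

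**Figure D5:**
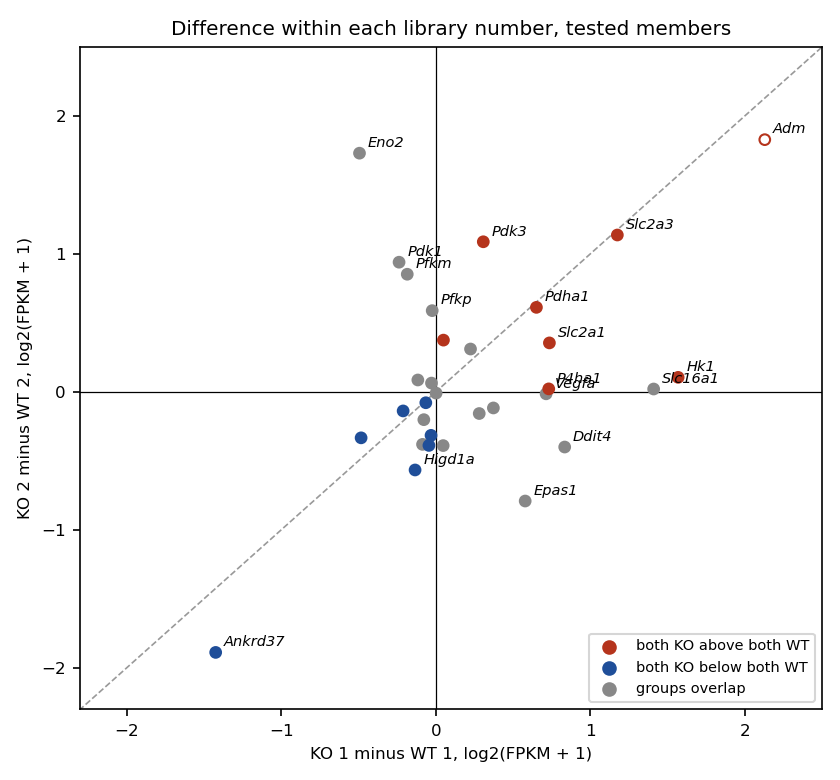
Difference in log2(FPKM + 1) between KO and WT for libraries numbered 1 (horizontal axis) and numbered 2 (vertical axis), 1 point per tested member, with equal differences on the dashed line (red, both KO libraries above both WT libraries; blue, below; grey, overlap). Slc2a3, Pdha1 and the open point of Adm (listed at 0 in WT) lie near the line above 0, Ankrd37 lies near it below 0, and 13 members lie in the quadrants of opposite sign.

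Further genes of the same pathways, listed by function but with earlier results of these data known, gave 0 adjusted p under 0.05 by limma in each of 5 lists. Of all tested rows, both KO libraries were higher for 16.6% and lower for 18.3%. Of 8 other tested genes of glycolysis, both KO libraries were higher for 1 and lower for 0. That gene was Bpgm, which diverts a glycolytic intermediate into 2,3-bisphosphoglycerate (79.0 and 91.1 FPKM in WT, 92.8 and 105.1 in KO). Of 6 tested genes of the pentose phosphate pathway, 1 was higher and 2 were lower, beside the same shares of all tested rows. Taldo1, its transaldolase, was measured at 673.5 and 539.9 FPKM (WT 1, WT 2) and at 483.5 and 371.5 FPKM (KO 1, KO 2) (-0.51, SE 0.18), while Pgd, an NADPH-making dehydrogenase of the same pathway, was at 17.6 and 13.1 FPKM in the WT pair of libraries, against 29.7 and 20.4 FPKM in the KO pair (0.66, SE 0.31).

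Of 17 genes of the citric acid cycle, both KO libraries were higher for 2 and lower for 7, with a median log2 fold change of -0.07. Of all tested rows 18.3% lay lower, and of those of at least 30 FPKM 32.4%. Sdhd, a membrane anchor of succinate dehydrogenase, was at 238.1 and 250.1 FPKM in WT, whereas the KO libraries had 204.8 and 180.1 FPKM. Of 28 other tested hypoxia-responsive genes, 6 were higher and 6 lower, with a median of 0.0025. Mif, a cytokine whose gene HIF can induce, was measured at 686.2 and 748.4 FPKM (WT 1, WT 2) and at 534.0 and 533.6 FPKM (KO 1, KO 2) (-0.42, SE 0.096; limma unadjusted p = 0.007, adjusted p = 0.86). Plod1, a collagen lysyl hydroxylase, was at 34.1 and 52.8 FPKM in the WT pair of libraries, against 69.8 and 63.5 FPKM in the KO pair (0.64, SE 0.27). The counts of 6 of 28 each way were near the background of 16.6% higher and 18.3% lower. They describe these genes and support no statement about targets of low oxygen as a set.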

How the data were processed

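RNA sequencing of 4 libraries was used as deposited. The values are FPKM made by the authors, 1 column per library, to 3 decimals, per the file headers. TopHat and the mm10 build are named in the submitters' processing notes, without a version. For the FPKM program, annotation and strand setting: not given in the sources used here. Values of this kind hold no counts, and depth in reads is unknown. Among rows low in both libraries, the most common ratio to WT 1 was 0.847 (WT 2), 0.933 (KO 1) and 0.946 (KO 2). A narrow range around each held only 5.16%, 6.01% and 4.51% of 794, 832 and 821 such rows. Read as the worth of 1 read relative to WT 1, these ratios assume that low values step by whole reads, which was not tested. No counts were rebuilt and no counting error is given.

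From these, log2(FPKM + 1) was tested with limma 3.58.1 in R 4.3.3 (genotype only, moderated variances that follow the mean, two-sided, Benjamini-Hochberg adjustment over all 10754 rows with at least 1 FPKM in at least 2 libraries, threshold 0.05), after the script was tested on simulated data. Each SE belongs to a log2 fold change. Fold changes on this scale understate those of low genes. Near-identical gene models were found with BLAST 2.17.0. Alternatives covered the pseudocount, filter, scaling, variance model, block, length and level trends, and each library left out.

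The members and lists were chosen with earlier results of these data known. Named genes were all members, Zfp488, up to 2 genes with the smallest p and separate groups per further pathway list, and the 2 most abundant of each marker list. In the lists of markers for astrocytes, neurons, microglia, endothelial cells, precursors, oligodendrocytes and proliferation, 0 genes passed and 0 were at 0 in all libraries. A few results under this rule are not reported here. The other most abundant markers not given elsewhere were Vtn (0 and 35.3 FPKM for WT, 7.34 and 28.5 for KO) and Cldn5 (0 and 26.8, 0.035 and 26.3) of vessels, C1qb (9.97 and 43.4, 9.85 and 53.6) of microglia, Nefl (8.70 and 6.82, 6.97 and 12.9) of neurons, Fabp7 (905.3 and 1693, 1055 and 1770) of astrocytes, C1ql1 (589.8 and 486.8, 651.9 and 425.7) and Lhfpl3 (82.2 and 93.2, 116.6 and 117.4) of precursors, and Ccnb1 (22.2 and 182.8, 46.4 and 198.2) and Pcna (64.7 and 121.7, 77.0 and 94.5) of dividing cells.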

Additional observations from a re-analysis of the deposited data

How the results depend on the processing

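No row and no member had an adjusted p under 0.05 by limma under any of the 14 alternatives; the smallest adjusted p of a member was 0.413, with the library number as a block. That replicate block gave 0 calls, as without it, and 1025 rows at an unadjusted p under 0.05 in place of 608; it changed no call. The numbers come from the sample titles, nothing says what they share, and same-numbered libraries deviated together with a correlation of 0.289 over 10754 rows from 2 pairs.

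The count of members with both KO libraries higher was 8 (16.6% of all rows), and 4 with the filter at 5 FPKM (23 members tested; 14.4% of all rows) and 13 after rescaling to TPM (21.7%). The count lower was 7 (18.3%), and 3 after rescaling to TPM (13.1%) or quantile normalization (17%) and 4 after removal of the trends (17%). The median of 0.17 became 0.095 with no filter, -0.0036 with the filter at 5 FPKM and 0.28 with TPM. With 1 library left out, the lone library of its group being assumed to vary like the others, the counts were 12 to 13 higher (30.5% to 35.5% of all rows) and 8 to 13 lower (32.7% to 36.6%), and the median 0.054 to 0.13. Fewer libraries separate more easily, so those counts are not comparable with 8 and 7.

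Of 439 values of single members, 25 turned sign and 19 members never did. After rescaling to TPM, Pfkl was at 0.025, Pkm at 0.084 and Ldhb at 0.096. After quantile normalization, Tpi1 was at 0.052, Pkm at 0.057 and Ldhb at 0.11. After removal of the trends, Tpi1 was at 0.034, Pkm at 0.054 and Ldhb at 0.20. After median centring, Eno1 was at -0.0060. With 1 library left out, the ranges that crossed 0 were -0.19 to 0.44 for Egln1, -0.26 to 1.5 for Eno2, -0.45 to 1.15 for Pdk1, -0.60 to 0.39 for Epas1, -0.22 to 0.34 for Bnip3, -0.36 to 0.80 for Ddit4, -0.029 to 0.70 for Pfkm, -0.043 to 0.58 for Aldoc, -0.28 to 0.00043 for Tpi1, -0.064 to 0.10 for Eno1, -0.13 to 0.099 for Pkm and -0.099 to 0.092 for Ldhb. The cause of these turns was not tested.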
